A study of Mus musculus with 15 samples.

Results

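The Ifit genes encode the interferon-induced proteins with tetratricopeptide repeats, and 4 of the 55487 genes in the count table were taken as the family here by their symbols: Ifit1, Ifit2, Ifit3 and Ifit3b. They were counted in the skin of 3-week-old mice on the C57BL/6 background, in 15 libraries made with a kit that reads the 3′ end of mRNA. The libraries fell into 3 groups of 5, namely WT skin, OTULIN-KO skin that appeared non-lesional and OTULIN-KO skin that appeared lesional. The OTULIN-KO mice were Otulin fl/fl and carried K14-Cre, a recombinase driven by the keratin 14 promoter of keratinocytes, and the WT mice were littermates with the loxP-flanked alleles and no Cre. OTULIN is the deubiquitinase that removes linear ubiquitin chains. The Cre acts in keratinocytes while the RNA came from skin with all its cells, and lesions were focal and assigned by appearance.

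IFIT proteins are made at low levels until a cell responds to interferon or to viral RNA, when they are among the transcripts that rise most steeply. Type I and type III interferons act through receptors and the kinases Jak1 and Tyk2 on transcription factors that include Stat2 and Irf9, which bind a response element in the promoters of their targets. IFIT1 binds capped RNA that lacks the methyl marks of the host's own mRNA and keeps it from being translated, and IFIT2 and IFIT3 are its relatives and partners in complexes. In skin, keratinocytes, fibroblasts and immune cells can all express them, and in whole tissue fewer cells of a type and less RNA per cell cannot be told apart.

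The 4 genes lay on the plus strand of mouse chromosome 19 in GRCm38, in a cluster of 6 protein-coding genes of the family that spanned 99.3 kb. Ifit2 (ENSMUSG00000045932) was at chr19:34550694-34576419, Ifit3 (ENSMUSG00000074896) at chr19:34583531-34588731, Ifit3b (ENSMUSG00000062488) at chr19:34607970-34613401 and Ifit1 (ENSMUSG00000034459) at chr19:34640871-34650009. Ifit1bl1 and Ifit1bl2, on the minus strand, lay on either side of Ifit3b. No exon of the 4 genes overlapped an exon of another gene on either strand in the GENCODE M21 annotation. Because a response element is the feature by which interferon targets are usually recognised, the stretch from 200 to 51 bases before a RefSeq start site (GRCm38.p6) is shown for each gene, 5′ to 3′ on the plus strand. For Ifit1 it begins 145 bases before the start, so as to leave out the first exon of Ifit1bl2. Capitals mark each match to GAAANNGAAA on either strand, the core of an interferon-stimulated response element. The stretches lay at chr19:34640744-34640838 for Ifit1, chr19:34583329-34583478 for Ifit3, chr19:34607757-34607906 for Ifit3b and chr19:34550494-34550643 for Ifit2.
Ifit1: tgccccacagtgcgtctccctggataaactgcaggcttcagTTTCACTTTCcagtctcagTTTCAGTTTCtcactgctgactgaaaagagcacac
Ifit3: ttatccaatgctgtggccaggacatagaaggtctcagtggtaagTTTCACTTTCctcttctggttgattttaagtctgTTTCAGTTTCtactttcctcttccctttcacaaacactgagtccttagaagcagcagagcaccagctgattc
Ifit3b: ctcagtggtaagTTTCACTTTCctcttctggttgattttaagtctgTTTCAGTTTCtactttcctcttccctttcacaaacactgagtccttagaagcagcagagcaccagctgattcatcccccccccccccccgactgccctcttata
Ifit2: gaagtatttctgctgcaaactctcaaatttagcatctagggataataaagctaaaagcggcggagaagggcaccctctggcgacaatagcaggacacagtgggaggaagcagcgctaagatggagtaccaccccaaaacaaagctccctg

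Of the 4 members, 3 held a match in the 300-base RefSeq window around a start site (250 bases before it and 50 after), and each of those held 2. In Ifit1 the matches began 104 and 85 bases before the start, in Ifit3 156 and 122 bases before it, and in Ifit3b 188 and 154 bases before it. The first of the 2 read TTTCACTTTC and the other TTTCAGTTTC in all 3 genes, with their first bases 19 apart in Ifit1 and 34 apart in both Ifit3 and Ifit3b. The Ifit3 and Ifit3b windows shared an unbroken run of 169 bases, while the longest run shared by any other pair of members was 13 bases. Ifit1 and Ifit1bl2 start close to each other in opposite directions, and the 2 matches of Ifit1 were the same bases as the 2 in the window of Ifit1bl2. Neither of the 2 Ifit2 windows held these letters, which says only that they were not within those windows. Among all RefSeq promoter windows of this length, 1131 of 32851 (3.44%) held a match, and by gene the share was 3.99% of 27025. Of 30 other antiviral interferon targets listed below, 22 had a window and 15 of those (68.2%) held a match.

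The family was sparsely counted. Libraries held 1962604 to 2567138 counts in all, and the 4 members together took 1042 counts over the 15 libraries, of which Ifit1 took 731, Ifit3 144, Ifit2 116 and Ifit3b 51. Levels below are CPM (a gene's counts brought to one common library total) scaled by the trimmed mean of M-values (TMM), and since reads start at the 3′ end of a transcript they were not divided by length. The filter that edgeR applies to low counts kept Ifit1 alone in both comparisons with WT, and Ifit1 and Ifit3 in the comparison of lesional with non-lesional skin. The other members are therefore described mainly by their counts. Keratinocyte markers (summed 7378 to 13653 CPM) and fibroblast markers (16563 to 68400 CPM) were present in every library, and Otulin itself, which cells other than keratinocytes still carry, did not separate the labels, with 29 to 64 counts in WT, 50 to 69 in non-lesional and 37 to 64 in lesional libraries. The targeted gene therefore gave no check of the genotype labels.

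Ifit1, the cap-binding member, was higher in all 5 non-lesional OTULIN-KO libraries than in any WT library. WT libraries 1, 4, 7, 10 and 13 held 6, 3, 13, 13 and 6 Ifit1 counts, or 2.36, 1.32, 5.89, 5.54 and 2.28 CPM. Non-lesional libraries 3, 6, 9, 12 and 15 held 39, 25, 26, 71 and 20 counts, or 17.6, 10.7, 10.8, 28.8 and 8.83 CPM. The lowest non-lesional library was above the highest WT library, so the groups did not overlap, as was the case with the non-lesional group higher for 0.392% of the 13021 genes tested and for 0.238% of 27255 genes with no filter on low counts.

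Mean Ifit1 was 3.48 ± 2.08 CPM (SD, n = 5) in WT and 15.3 ± 8.20 CPM (SD, n = 5) in non-lesional skin. The log2 fold change was 2.15 (SE 0.41, 95% interval 1.29 to 3.01), with an unadjusted p of 6.53e-05 in edgeR's quasi-likelihood test. Ifit1 passed the filter on low counts through the non-lesional libraries, where it is high. After Benjamini-Hochberg adjustment over all genes this p became 0.723, and 0 genes passed 0.05, which is 0% of those tested. With no filter edgeR gave 2.14 and an adjusted p of 6.10e-08, 1 of 18 genes called among 27255 (0.066%). DESeq2, with nearly no filter on low counts, gave Ifit1 a log2 fold change of 2.15 and an adjusted p of 0.0245, the single gene called among 27202 (0.00368%). The exact permutation test of log2 CPM over the libraries, two-sided, gave p = 0.00794 for Ifit1, the smallest that 5 against 5 libraries can give. It was 1 of 12 such tests, 1 for each member and comparison. With all 15 libraries in 1 edgeR fit, which shares the spread of the lesional libraries, the value was 2.15 with an SE of 1.07 (unadjusted p = 0.0654). The groups were thus apart in these libraries, while the call of Ifit1 across all genes depended on the fit.

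Lesional skin held the highest and some of the lowest Ifit1 levels of the OTULIN-KO mice. Lesional libraries 2, 5, 8, 11 and 14 held 119, 18, 14, 346 and 12 Ifit1 counts, or 54.6, 9.34, 5.66, 175 and 5.89 CPM. Libraries 2 and 11 were above every other library of the study, whereas 8 and 14 were at the level of the highest WT libraries and below every non-lesional one. In all, 4 of 5 lesional libraries exceeded every WT library in CPM and library 8 did not, but library 14 was level with WT library 7 at 5.89 CPM (12 against 13 counts). Both comparisons with WT use the same 5 WT libraries.

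The lesional mean of Ifit1 was 50.1 ± 72.9 CPM (SD, n = 5), an SD larger than the mean. Against WT the log2 fold change was 3.84 (SE 1.13, 95% interval 1.31 to 6.38), with an unadjusted p of 0.00727 and an adjusted p of 0.926 in edgeR. Here Ifit1 passed the filter through the lesional libraries, and with no filter edgeR gave 3.85 (SE 1.21, unadjusted p = 0.0127, adjusted p = 0.721). Here too 0 of 12918 genes (0%) passed the adjusted threshold. DESeq2 called 14 of 12650 genes (0.111%) and gave Ifit1 an adjusted p of 0.0839. By exact permutation the difference of mean log2 CPM from WT was 2.43 (two-sided p = 0.0159). With quality weights for libraries in limma the log2 fold change was 1.92 (SE 0.82, unadjusted p = 0.0345), and without lesional library 11 it was 2.44 in edgeR. Without libraries 2 and 11 together, an alternative chosen after seeing the data, it was 0.99, and the exact permutation p of the 3 remaining libraries against 5 WT libraries was 0.0714, where the smallest possible is 0.0357.

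The 2 libraries with high Ifit1 were also those with markers of inflamed epidermis. The summed level of 8 such markers, all of them detected (the stress keratins Krt6a, Krt6b and Krt16, and S100a8, S100a9, Sprr2d, Sprr1b and Stfa1), was 13408 CPM in lesional library 2 and 34598 CPM in lesional library 11. It was 251 to 437 CPM in the other 3 lesional libraries, 324 to 1238 CPM in non-lesional and 280 to 1332 CPM in WT libraries. Of 6 neutrophil markers, the defining Ly6g and Csf3r were at 0 in every library, and the summed level was 28.0 CPM in lesional 2 and 127 CPM in lesional 11 against 4.86 to 12.5 CPM in all the others. Most of that sum was Mmp9, a matrix protease that cells other than neutrophils also make, at 92.7 CPM (183 counts) or 72.9% of it in lesional 11. The other 5 markers summed to 7.79 CPM in lesional 2, 34.4 CPM in lesional 11 and at most 2.25 CPM elsewhere. Muscle and fibroblast markers were lowest in lesional 11, at 2573 CPM against 10566 to 26107 CPM elsewhere and at 16563 CPM against 26190 to 68400 CPM. The sum of 7 keratinocyte markers was highest there, at 13653 CPM against 7378 to 11370 CPM elsewhere, but its members did not move together. The basal keratins Krt14 and Krt5 were highest in lesional 11, at 5993 and 4369 CPM, while the differentiation markers Lor (863 CPM, lowest in WT 2528 CPM) and Krt10 (1383 CPM, lowest in WT 2169 CPM) were below every WT library. Krt1, also a differentiation marker, went the other way, at 621 CPM in lesional 11 against at most 258 CPM in WT. Krt10 was below every WT library in lesional 14 too, at 1059 CPM. The part of these differences in the Ifit1 level was not tested. Krt6a made up 85.6% to 97.2% of the inflamed epidermis sum in every library but lesional 2, lesional 11 and non-lesional 3. Without Krt6a the sum was 592 CPM in non-lesional 3, with 223 CPM of Krt6b, 117 CPM of S100a8 and 104 CPM of S100a9, above the WT maxima of 17.3, 3.80 and 3.93 CPM. Non-lesional 15 was also above WT in S100a8 (11.9 CPM) and S100a9 (7.95 CPM). Without Krt6a the sum was 9.88 to 58.3 CPM in non-lesional libraries 6, 9, 12 and 15, within the WT range of 16.3 to 129 CPM or below it, and their Ifit1 was 8.83 to 28.8 CPM. Without non-lesional 3 the log2 fold change of Ifit1 in non-lesional skin against WT was 2.09 (SE 0.44).

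**Figure D1:**
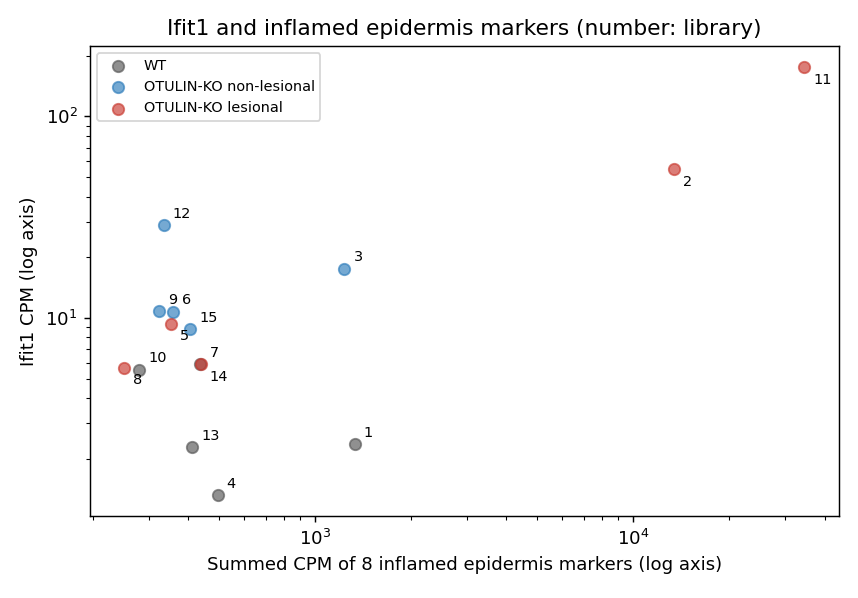
Ifit1 CPM (y axis, log) against the summed CPM of 8 inflamed epidermis markers (x axis, log) in each of the 15 libraries, coloured by group and numbered by library. Lesional libraries 2 and 11 sit apart at 13408 and 34598 CPM of the markers, while the 5 non-lesional libraries lie above the WT libraries in Ifit1. The marker sums of the non-lesional libraries (324 to 1238 CPM) and of WT (280 to 1332 CPM) overlap and are mostly Krt6a, and non-lesional 3 is above WT in the sum of the other 7 markers.

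Between lesional and non-lesional skin of the OTULIN-KO mice no direction was established for Ifit1. The log2 fold change was 1.69 (SE 0.98, 95% interval -0.53 to 3.91, adjusted p = 0.973 in edgeR), among 12864 genes of which 0% passed, and the exact permutation p was 0.603. In Ifit1, 2 lesional libraries lay above every non-lesional library and 2 lay below all of them. Without lesional 2 and 11, an alternative chosen after seeing the data, the log2 fold change was -1.16. These are the 2 libraries with the highest Ifit1, so leaving them out had to lower the value, and no test is given for it. No label tied a lesional to a non-lesional sample of one mouse, and the 2 groups were compared unpaired.

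**Figure D2:**
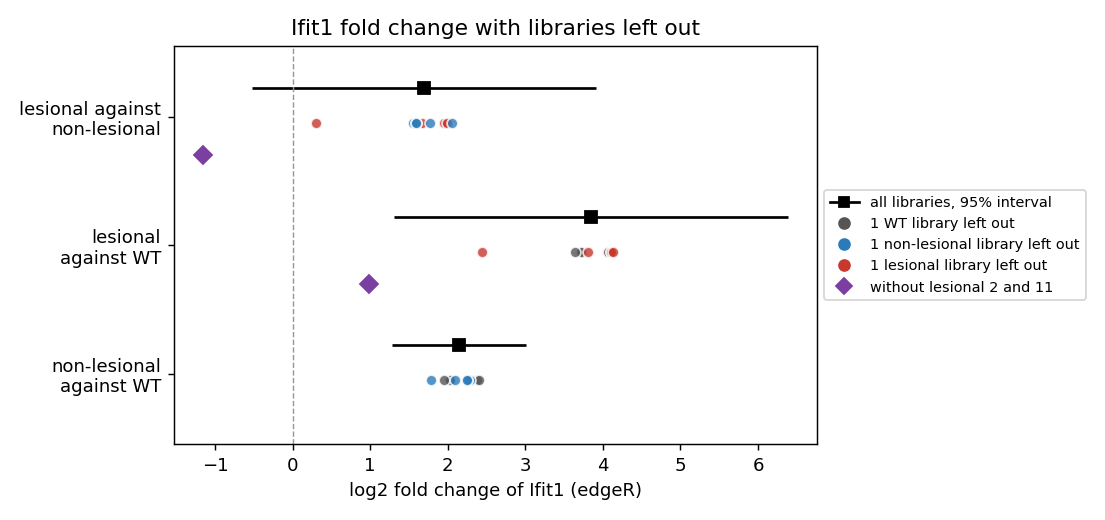
Log2 fold change of Ifit1 (x axis) in each of the 3 comparisons (y axis), with all libraries (square, 95% interval of edgeR), with each library left out in turn (circles, coloured by the group that lost a library) and without lesional 2 and 11 (diamond). The non-lesional value against WT stays between 1.79 and 2.41, the lesional value falls to 2.44 without lesional 11, and the value of lesional against non-lesional skin runs from 0.30 to 2.05 and turns to -1.16 without both.

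Ifit3 was counted far less than Ifit1 and was highest in the same 2 libraries. WT libraries 1, 4, 7, 10 and 13 held 8, 6, 7, 3 and 6 Ifit3 counts, non-lesional libraries 3, 6, 9, 12 and 15 held 5, 9, 12, 12 and 9, and lesional libraries 2, 5, 8, 11 and 14 held 15, 5, 8, 29 and 10. Lesional 11 and lesional 2 held the most. In counts 4 of 5 non-lesional and 3 of 5 lesional libraries exceeded every WT library, and lesional 8 equalled WT 1. In CPM lesional 8 exceeded the highest WT library narrowly, at 3.23 against 3.17 CPM.

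Mean Ifit3 was 2.50 ± 0.78 CPM (SD, n = 5) in WT, 3.99 ± 1.10 CPM in non-lesional and 6.46 ± 4.89 CPM in lesional skin. The exact permutation p of Ifit3 was 0.0556 for non-lesional and 0.0476 for lesional skin against WT, both of them unadjusted, and the lesional difference passed 0.05 in only 2 of 10 cases with a library left out. With no filter on low counts the log2 fold change of Ifit3 in lesional skin was 1.34 (95% interval 0.39 to 2.29, unadjusted p = 0.00656, adjusted p = 0.721 in edgeR), and in non-lesional skin it was 0.67 (95% interval -0.24 to 1.58, adjusted p = 0.747). Without lesional 2 and 11 the difference of mean log2 CPM of Ifit3 from WT was 0.40 (exact permutation p = 0.214), against 0.94 with them. Lesional against non-lesional skin gave 0.67 (SE 0.45, 95% interval -0.30 to 1.63, adjusted p = 0.973 in edgeR).

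Ifit2 overlapped between the groups. Its counts were 12, 4, 5, 4 and 12 in WT libraries 1, 4, 7, 10 and 13, 3, 7, 10, 4 and 9 in non-lesional libraries 3, 6, 9, 12 and 15, and 13, 6, 6, 13 and 8 in lesional libraries 2, 5, 8, 11 and 14. WT libraries 1 and 13 exceeded all 5 non-lesional ones, and the 2 highest lesional libraries were 2 and 11, at 13 counts each. With no filter on low counts, the log2 fold change of Ifit2 was -0.11 in non-lesional skin (95% interval -1.05 to 0.84, adjusted p = 0.996 in edgeR) and 0.52 in lesional skin (95% interval -0.44 to 1.48, adjusted p = 0.737). An increase of Ifit2 above 0.84 in non-lesional skin lay outside the interval, and changes within the intervals were not detectable at these counts.

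Ifit3b had the fewest counts of the 4. They were 2, 6, 3, 4 and 3 in WT libraries 1, 4, 7, 10 and 13, 1, 1, 4, 6 and 7 in non-lesional libraries 3, 6, 9, 12 and 15, and 8, 0, 1, 3 and 2 in lesional libraries 2, 5, 8, 11 and 14. Lesional 11, the library with the most Ifit1, held 3 counts of Ifit3b, and the 0 counts of lesional 5 allow up to 1.53 CPM. The groups overlapped, and with no filter the log2 fold change of Ifit3b against WT was 0.10 in non-lesional skin (95% interval -1.17 to 1.37) and -0.19 in lesional skin (95% interval -1.68 to 1.30), with adjusted p-values of 0.999 and 0.978 in edgeR.

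**Figure D3:**
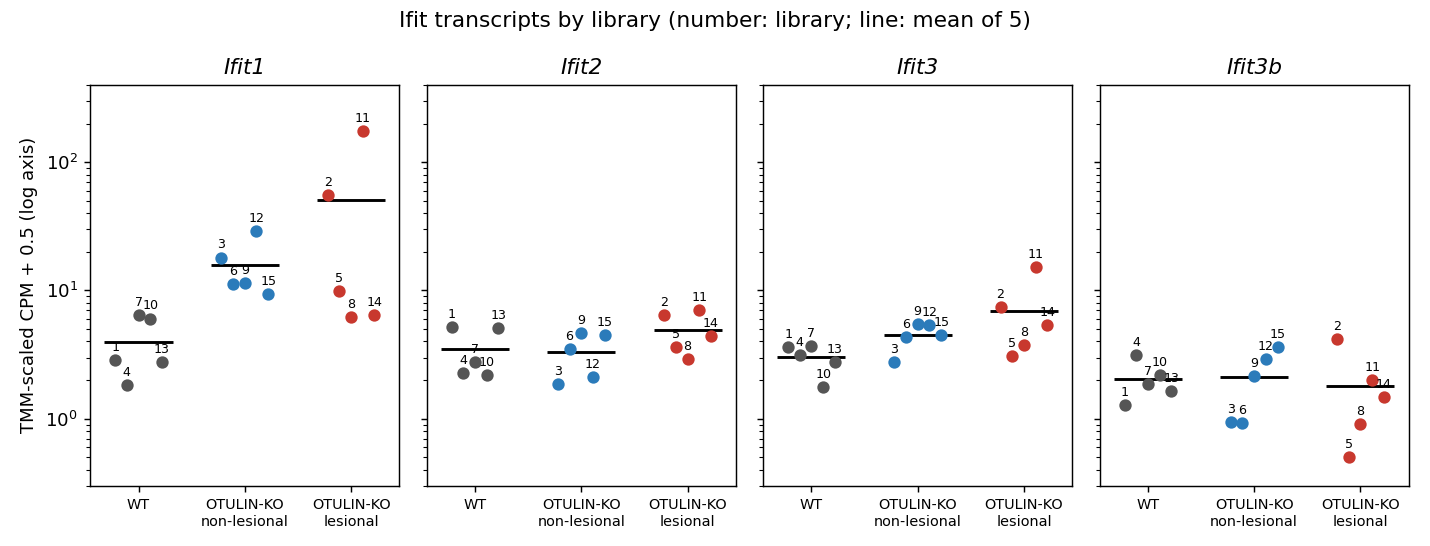
TMM-scaled CPM plus 0.5 (y axis, log) of each member in every library, by group (x axis), numbered by library, with the mean of 5 libraries as a line. Ifit1 in all 5 non-lesional libraries lies above WT, lesional 2 and 11 stand at 54.6 and 175 CPM, and Ifit2 and Ifit3b overlap between the groups.

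Ifit3 and Ifit3b are near copies over much of their length. Their longest annotated transcripts were 81.7% identical over their whole length and 50.2% over the last 500 bases of each, aligned end to end, and 1012 of the 1711 stretches of 35 bases in Ifit3 (59.1%) also occurred in Ifit3b. Within the last 500 bases, where reads of this kit lie, 20.8% of the stretches of Ifit3 occurred in Ifit3b and 2.79% of those of Ifit3b occurred in Ifit3. In the same stretch 9.01% of Ifit3b, 2.15% of Ifit1 and 0% of Ifit2 occurred in any other gene. The authors kept alignments of mapping quality 30 or more, and how many reads of the shared stretches were lost or moved was not tested. With the counts of both summed before the fit, the members called remained 0 in all 3 comparisons. The fits without summing called 0 genes of any kind, so this count says little about shared reads.

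The family's counts differed between libraries in make-up as well as in amount. The summed level of the 4 members was 10.5 ± 1.55 CPM (SD, n = 5) in WT, 23.8 ± 7.92 CPM in non-lesional and 62.3 ± 79.8 CPM in lesional skin. Ifit1 made up 32.5% of the family's counts in WT, 64.6% in non-lesional and 80.0% in lesional skin, with 15.8% to 54.2% in single WT libraries, 44.4% to 81.3% in non-lesional and 37.5% to 88.5% in lesional ones. The lowest lesional share was in library 14 and the highest in library 11.

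Whether Ifit1 moved more than its relatives was tested on the log2 ratio of Ifit1 to each other member within a library, 9 tests chosen after seeing the data. The ratio of Ifit1 to Ifit3b was 0.77 ± 0.89 (log2, SD, n = 5) in WT, 2.72 ± 0.98 in non-lesional and 3.51 ± 1.68 in lesional skin, with exact permutation p-values of 0.0238 and 0.00794 against WT. The ratio to Ifit2 was higher by 1.97 in both OTULIN-KO groups (exact permutation p = 0.0397 and 0.0635), and the ratio to Ifit3 by 1.38 and 1.49 (exact permutation p = 0.0556 and 0.0873). The smallest p adjusted over the 9 ratios was 0.0714, for Ifit1 over Ifit3b in lesional skin, where all 5 libraries lay above every WT library. Its raw exact permutation p of 0.00794 is the smallest that 5 against 5 libraries can give. A lone ratio at that floor could not pass 0.05 after adjustment. An unequal change of the members was therefore neither established nor excluded by these tests. The ratios were computed with a prior count of 2, which draws the ratios of the low members towards 0.

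**Figure D4:**
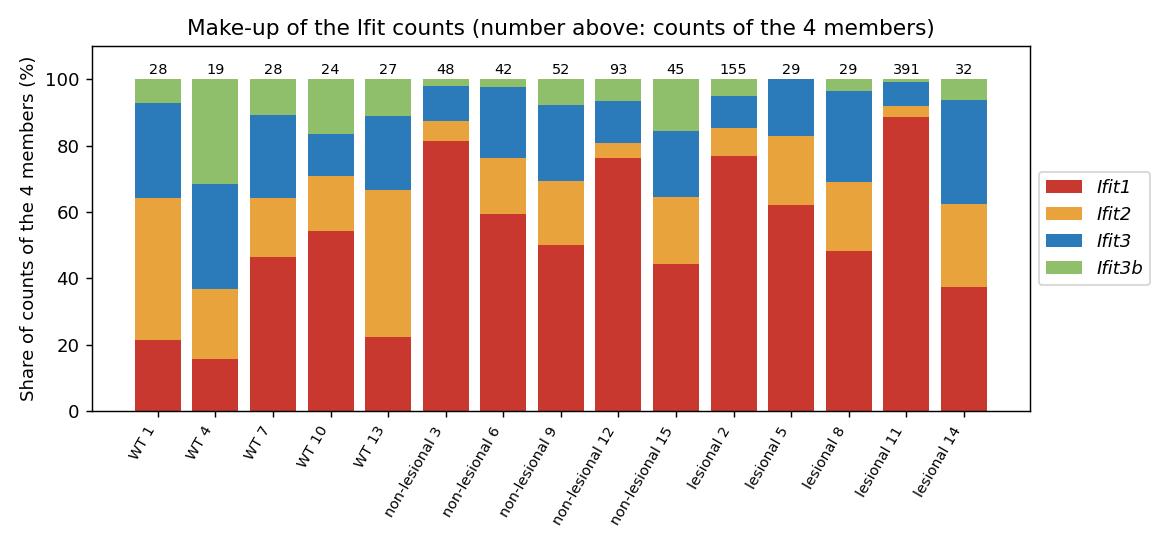
Share of the counts of the 4 members (y axis, %) taken by each member in every library (x axis), with the number of counts above the bar. Ifit1 takes 15.8% to 54.2% in the WT libraries and reaches 88.5% in lesional 11, and bars with 19 to 32 counts rest on few reads.

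Ifit1bl1 and Ifit1bl2, the other genes of the family within the cluster, were close to 0. Ifit1bl1 had 1 count in all WT, 1 in all non-lesional and 4 in all lesional libraries, and Ifit1bl2 had 1, 1 and 7, of which 5 were in lesional 11. The nearest protein-coding genes outside the cluster were Lipa and Ch25h to the left and Slc16a12 and Pank1 to the right. Lipa, the lysosomal acid lipase gene, 23220 bases away, was at 19.6 ± 4.47, 16.3 ± 1.12 and 17.6 ± 3.10 CPM (SD, n = 5) in WT, non-lesional and lesional skin. Pank1, a pantothenate kinase gene, was at 107 ± 18.5, 116 ± 24.5 and 105 ± 17.4 CPM. Ch25h held at most 3 and Slc16a12 at most 10 counts in any library.

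Among the 10 interferon ligands listed, 8 were at 0 in all 15 libraries (Ifnb1, Ifna1, Ifna2, Ifna4, Ifna5, Ifne, Ifnl2 and Ifnl3), which allows 1.17 to 1.53 CPM in a single library. Ifnk, the keratinocyte interferon, had 5 counts over the WT, 8 over the non-lesional and 10 over the lesional libraries, of which 9 were in lesional 2. Ifng, the type II interferon, had 1 count, in lesional 11. A difference in ligand transcripts was not detectable at this depth.

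No receptor or kinase passed the test. Of 9 such genes, 9 were tested and 0 passed an unadjusted p of 0.05 in either comparison with WT, with median log2 fold changes of -0.05 and -0.01. Of all genes, 241 passed and were higher and 170 lower among 13021 in non-lesional skin, and 419 and 202 among 12918 in lesional skin. Beside such shares 0 of 9 does not set the list apart from all genes. Ifnar2, a chain of the type I receptor, was at 48.3 ± 5.46 CPM (SD, n = 5) in WT, 44.3 ± 5.64 in non-lesional and 52.3 ± 8.16 in lesional skin. Its log2 fold change was -0.13 (95% interval -0.41 to 0.15) in non-lesional and 0.11 (-0.22 to 0.45) in lesional skin.

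Of 7 transcription factors of the interferon pathway, 3 passed an unadjusted p of 0.05 and were higher in each comparison with WT, beside 1.85% of all genes in non-lesional and 3.24% in lesional skin. The median log2 fold change of the 7 was -0.03 in non-lesional and 0.40 in lesional skin. Irf9 had a log2 fold change of 0.78 (SE 0.18) in non-lesional and 1.21 (SE 0.33) in lesional skin, and Irf7, which amplifies interferon production, of 1.29 (SE 0.36) and 2.37 (SE 0.69). Stat2 stood at 0.66 (SE 0.24) and 1.32 (SE 0.40). With the filter none passed adjustment over all genes (adjusted p = 0.9998 for all 3 in non-lesional and 0.926 in lesional skin, edgeR). With no filter on low counts 1 of 7 did in non-lesional skin, beside 0.066% of all genes, and 0 of 7 in lesional skin, beside 0%. Without lesional 2 and 11, left out after seeing the data, 2 of 7 passed an unadjusted p of 0.05 in lesional skin against WT, beside 1.42% of all genes that passed and were higher, and the median was 0.18. Irf9 was then at 0.52 (SE 0.20), Irf7 at 0.76 (SE 0.41) and Stat2 at 0.57 (SE 0.26). Irf3, which is activated without interferon, was at -0.17 in non-lesional skin (unadjusted p = 0.203).

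Of 30 antiviral targets other than the Ifit genes, 19 passed the filter on low counts in each comparison with WT, and 11 did not. The tested genes were not the same in both, since Ifi44 was tested only in non-lesional skin and Bst2 only in lesional skin. A gene low in WT passes only through the group where it is high, so all 30 were also counted with no filter, an alternative added after seeing the data. In non-lesional skin 29 of 30 then had a positive log2 fold change, beside 52.0% of all genes, and 16 of 30 passed an unadjusted p of 0.05 and were higher, beside 2.33%. Their median was 0.79, beside 0.01 for all genes. In lesional skin 30 of 30 were positive, beside 50.6%, and 24 of 30 passed and were higher, beside 3.06%, with a median of 2.05 beside 0.006. With the filter the medians of the 19 tested genes were 0.64 and 1.47. With the filter none passed adjustment in edgeR, and without it 7 of 30 did in non-lesional skin, beside 0.066% of all genes, and 0 of 30 in lesional skin, beside 0%. With no filter the groups did not overlap for 4 of 30 in non-lesional skin (Gbp2, Ifi44, Parp14 and Rtp4), beside 0.238% of all genes, and for 3 of 30 in lesional skin (Bst2, Ifi35 and Rtp4), beside 0.318%. With the filter the shares of all genes were 0.392% and 0.441%.

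With the filter, the 4 with the smallest unadjusted p in either comparison with WT were Ifitm3, Rtp4, Ifi44 and Oasl2, all of them through the non-lesional comparison. Ifitm3, a membrane protein that hinders viral entry, was the best counted of them, at 281 ± 27.7, 437 ± 91.1 and 605 ± 371 CPM (SD, n = 5) in WT, non-lesional and lesional skin, with log2 fold changes of 0.64 (SE 0.13) and 1.11 (SE 0.33). Rtp4, an interferon-induced chaperone of receptors, had 6 to 20 counts in WT, 20 to 83 in non-lesional and 17 to 328 in lesional libraries. Ifi44 had 2 to 10, 11 to 26 and 4 to 435 counts in the same order. For both genes the non-lesional libraries lay at or above the highest WT count, and their CPM did not overlap between those groups. Oasl2, of the oligoadenylate synthetase family, had a log2 fold change of 1.74 (SE 0.40) in non-lesional skin, where its groups overlapped, with 12 to 34 counts in WT and 23 to 120 in non-lesional libraries.

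Lesional 2 and 11 had the highest summed level of the antiviral targets, 1746 and 3591 CPM against 558 to 877 CPM in the other 3 lesional libraries, so leaving them out had to lower the lesional values. Without them and with no filter, 6 of 30 targets passed an unadjusted p of 0.05 in lesional skin against WT and were higher, beside 2.01% of all genes, with a median log2 fold change of 0.37 beside -0.05. With the filter 6 of 19 did so, beside 1.42% of 13415 genes. Against non-lesional skin, with all libraries and no filter, the median of the antiviral targets was 0.96, and 4 of 30 passed an unadjusted p of 0.05 and were higher, beside 2.63% of all genes. With the filter 3 of 21 did so, beside 2.89%. Without lesional 2 and 11 and with no filter that median turned to -0.41, with 3 of 30 positive beside 46.4% of all genes, and 0 of 30 passed and were higher, beside 1.99%. In that setting 5 of 30 passed and were lower, beside 665 of 26489 genes. With the filter 0 of 21 passed and were lower, beside 274 of 13403 genes. Those 2 libraries were chosen with these levels known, so the turn and its counts are a description, and no test of the turn is given.

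Usp18 and Cish among the feedback inhibitors, and Eif3c among the partners of IFIT proteins, passed an unadjusted p of 0.05 in at least 1 comparison with WT. Usp18, the protease that removes Isg15 and restrains the type I receptor, had log2 fold changes of 1.50 (SE 0.38, unadjusted p = 8.49e-04) in non-lesional and 2.20 (SE 0.61, unadjusted p = 0.00371) in lesional skin. Of the feedback inhibitors, 1 of 5 (Usp18) passed an unadjusted p of 0.05 in non-lesional skin and 2 of 6 (Usp18 and Cish) in lesional skin, beside 1.85% and 3.24% of all genes in the direction of higher. Of the cap methyltransferases, cap-binding factors and subunits of eIF3, 0 of 10 passed in non-lesional and 1 of 9 in lesional skin, namely Eif3c, of the initiation factor eIF3, at 0.44 (SE 0.17). The same shares of all genes stand beside these counts, and whether the lists differ from them was not tested. The median log2 fold changes of these partners were 0.08 and 0.18. With the filter 0 feedback inhibitors passed adjustment over all genes in edgeR. With no filter on low counts 1 of 6 did in non-lesional skin, beside 0.066% of all genes, and 0 of 6 in lesional skin, beside 0%.

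**Figure D5:**
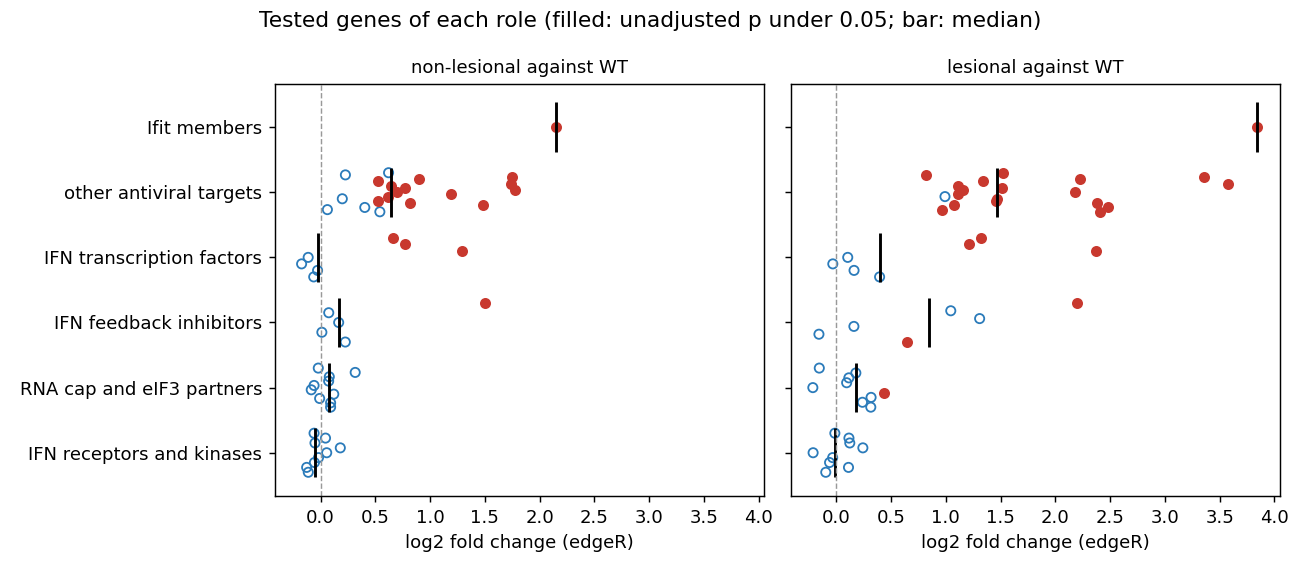
Log2 fold change (x axis, edgeR) of every tested gene in 6 groups of the interferon pathway (y axis), for non-lesional (left) and lesional (right) against WT skin, filled where the unadjusted p was under 0.05, with the group's median as a bar. Ifit1, the only member tested in both, lies at 2.15 and 3.84, above the medians of 0.64 and 1.47 of the other antiviral targets that passed the filter, and the receptors and kinases lie around 0.

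The genes whose log2 CPM followed each member most closely over the 15 libraries are given as a description, since all points share depth, groups and the high levels of lesional 2 and 11. Among 13461 genes, Ifit1 was followed by Msmo1 (Pearson r = 0.93, and 0.87 over the 14 libraries without lesional 11), N4bp1 (0.93 and 0.87) and Xaf1 (0.92 and 0.85). Ifit3 was followed by Cfl1 (0.90 and 0.76), Trim30d (0.89 and 0.76) and Cmtr1 (0.89 and 0.74). Ifit2 was followed by Dnajc5 (0.85 and 0.81), Cx3cr1 (0.84 and 0.80) and ENSMUSG00000085894 (0.84 and 0.81), and Ifit3b by Mettl5 (0.77 and 0.83), Ehd4 (0.74 and 0.86) and Spast (0.74 and 0.74). Between members, r was 0.78 for Ifit1 and Ifit3 (0.57 without lesional 11) and 0.65 for Ifit2 and Ifit3 (0.53). The other 4 pairs lay between 0.16 and 0.34, at counts where sampling alone moves the levels of the low members.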

How the data were processed

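RNA of mouse skin was sequenced with the QuantSeq 3′ FWD kit. Per the labels and the methods of the study, the authors trimmed reads with cutadapt 2.10 (minimum length 35), aligned them to GRCm38 with Subread, kept alignments of mapping quality 30 or more with SAMtools 1.7-2 and counted them per gene with featureCounts 2.0.1 (minimum overlap 20 bases, a read over several genes counted for each). No strand setting was stated. The deposited counts were used as they stood, with 92 spike-in rows (0 counts) left out. The authors also deposited CPM (count over library total), used only as an alternative.

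Group labels came from genotype and appearance. Each pair of groups was fitted alone in edgeR 4.0.16 (R 4.3.3) with filterByExpr, TMM factors and the robust quasi-likelihood test, adjusted by Benjamini-Hochberg over all genes tested. The fit was tested on simulated data. A member's log2 CPM (prior count 2) was compared by a two-sided exact permutation test over libraries (scipy 1.17.1), with 252 regroupings of 5 against 5. DESeq2 1.42.0, limma 3.58.1 with quality weights, 3 other scalings, other filters and left-out libraries were alternatives.

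The members and gene lists were chosen with earlier results of these data known. Genes outside the family were named by rule: at most 4 of each list with the smallest p against WT, ligands with any count, the 3 genes most correlated with each member and the 2 nearest protein-coding genes on each side. Of 140 listed symbols, 139 had a row, and 1 item of the pathway is not reported here. Libraries held 1962604 to 2567138 counts, and a count of 0 allows 3 counts; such limits cover counting error only. The study's legend gives profiles of 5 mice, the labels name no animal, and whether lesional and non-lesional libraries share mice is not given, so p-values measure the spread between these samples, which may in part be technical. No batch was labelled.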

Additional observations from a re-analysis of the deposited data

Results flagged for a closer look

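Groups of 5 libraries were screened for a library far from the rest of its group, for the 4 members and their sum. Of 15 groups, 2 held one, where about 1 in 20 is the rate for normal values and independent groups. The sum contains Ifit1 and raw CPM were screened, so that rate is only a guide. Ifit1 in the lesional group was highest in library 11, at 175 CPM, and the gap to the next library (54.6 CPM) was 0.712 of the whole range, past the critical value of 0.71. The summed level of the members in the non-lesional group was highest in library 12, at 37.7 CPM against 18.0 to 21.7 CPM in the other 4, a gap of 0.816 of the range. Ifit1 made up 76.3% of the family's counts in that library. Its inflamed epidermis markers were at 334 CPM, within the range of WT. No cause was tested for either library.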

How the results depend on the processing

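The number of members called in non-lesional against WT skin rose from 0 to 1 with DESeq2 and with no filter on low counts, both through Ifit1 (log2 fold change 2.15 and 2.14, adjusted p = 0.0245 and 6.10e-08). Ifit1 in lesional against non-lesional skin turned from 1.69 to -0.15 with quality weights in limma and to -1.16 without lesional 2 and 11. Those 2 libraries, left out after seeing the data, were the highest in Ifit1, which fixes the direction of that move. Without them the differences of mean log2 CPM were 0.95 for Ifit1 and 0.40 for Ifit3 against WT (exact permutation p = 0.0714 and 0.214), and -0.95 and -0.13 against non-lesional skin. The causes were not tested.

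With 1 library left out, edgeR's Ifit1 values ran from 1.79 to 2.41 (non-lesional against WT), 2.44 to 4.13 (lesional against WT) and 0.30 to 2.05 (lesional against non-lesional), with 0 adjusted calls. The permutation differences against WT ran from -0.19 to 0.10 (Ifit2), 0.37 to 0.68 (Ifit3) and -0.25 to 0.15 (Ifit3b) in non-lesional skin, and from 0.61 to 1.15 (Ifit3) in lesional skin, where Ifit3 kept p under 0.05 in 2 of 10 cases. Against non-lesional skin they ran from -0.24 (without lesional 11) to 0.95 for Ifit1 and from -0.59 to 0.0032 for Ifit3b. The permutation test of Ifit1 against WT passed 0.05 in 10 of 10 cases in both groups. Ifit3 in non-lesional skin passed (exact permutation p = 0.0159) when non-lesional 3 was left out. Of the values recomputed under alternatives, 247 stayed the same, 2 moved, 13 reversed, 3 became stronger and 10 weaker. For fold changes and permutation differences the same meant an unchanged direction and side of the threshold. For numbers of calls it meant an unchanged number, and for family levels a shift of less than 1 SD.

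A minimum of 10 counts in every library left no member to test against WT. No paired analysis was made because no label names the animal, and the sample numbers, which never repeat between groups, do not give it. With 0 to 29 counts per library for Ifit2, Ifit3 and Ifit3b, depth limits the family to large changes.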
